A study of Homo sapiens with 17 samples.

Results

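Broad domains of histone H3 trimethylated at lysine 36 (H3K36me3) were defined in HCC1954 cells, an established HER2-positive human breast cancer cell line. Overlapping or touching H3K36me3 peaks of 4 libraries were merged on autosomes 1 to 22. Domains were selected on 2 measured values of these lists: a merged length of at least 20 kb and a peak in all 4 libraries. This gave 1063 domains out of 79133 merged regions, or 1.34% of the regions and 18.01% of their base pairs. The domains spanned 31.6 Mb. All 1063 regions of at least 20 kb had a peak in every library, so the length alone set the membership. Cells had been transfected with antisense oligonucleotides and fixed after 72 hours, per the labels' protocols. The 2 arms are called NC1235 and Si1235 in the labels, which do not spell out those letters, and LINC01235, a long non-coding RNA, appears in the title of the series. Both arms are the same cell line and neither carries a further treatment in the labels. Each arm had 2 libraries for H3K36me3, the histone variant H2AZ and the acetylated histone H3K27ac, and 1 for H3K9ac. A single ChIRP library, which recovers DNA near a captured RNA, carries NC1235 in its title, and the sources used here do not name its target RNA. Nothing in the labels says that replicates were separate cultures, so the p-values below measure the spread between libraries, which may be technical.

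H3K36me3 is laid down in the bodies of transcribed genes by SETD2, a methyltransferase that travels with elongating RNA polymerase II. Proteins that read the mark recruit a DNA methyltransferase and histone deacetylases, which keep cryptic starts inside genes silent, and others link it to splicing and DNA repair. H2AZ and acetylated H3, by contrast, mark promoters and enhancers. The labelled cell type was checked on marker genes. All 8 epithelial genes checked, such as EPCAM and the keratins KRT8 and KRT18, had an H3K27ac peak in all 4 libraries, and 6 had H3K36me3. None of 7 immune markers, 0 of 6 fibroblast markers and 1 of 5 endothelial markers had H3K36me3 in all 4 libraries. An H3K27ac peak in all 4 was nevertheless present at 3 immune, 2 fibroblast and 3 endothelial markers. H3K27ac covered a median of 1.83, 1.13 and 4.45% of those genes, against 58.3% of the epithelial ones.

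The promoters of the 4 longest domain genes in the RefSeq promoter table of GRCh38.p14 are shown as windows that lay upstream of the domains. Each runs from 250 bases before to 50 after the start, 5′ to 3′ on the gene's strand. Capitals mark matches on either strand to 4 motifs: GGGCGG of Sp1-family factors, the CCAAT box, the TATA box spelled TATAAA, and the E-box CACGTG.
UBR4: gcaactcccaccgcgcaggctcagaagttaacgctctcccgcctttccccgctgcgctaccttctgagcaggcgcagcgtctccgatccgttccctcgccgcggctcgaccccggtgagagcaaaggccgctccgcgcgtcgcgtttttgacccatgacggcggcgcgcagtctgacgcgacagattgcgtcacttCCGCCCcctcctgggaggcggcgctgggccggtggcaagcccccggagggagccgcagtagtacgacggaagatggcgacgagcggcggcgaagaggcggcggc
BRWD1: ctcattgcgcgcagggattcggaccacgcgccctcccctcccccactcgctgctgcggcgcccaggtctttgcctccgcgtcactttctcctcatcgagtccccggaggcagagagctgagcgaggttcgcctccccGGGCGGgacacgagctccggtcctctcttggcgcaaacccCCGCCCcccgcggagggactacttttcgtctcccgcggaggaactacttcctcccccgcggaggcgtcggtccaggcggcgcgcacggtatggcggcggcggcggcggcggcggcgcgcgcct
TNS3: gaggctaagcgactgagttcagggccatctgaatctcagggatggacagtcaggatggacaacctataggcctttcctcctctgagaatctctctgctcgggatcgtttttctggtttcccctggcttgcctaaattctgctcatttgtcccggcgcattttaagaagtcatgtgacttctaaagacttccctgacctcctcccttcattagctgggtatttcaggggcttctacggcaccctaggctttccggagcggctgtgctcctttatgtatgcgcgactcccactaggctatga
CEP295: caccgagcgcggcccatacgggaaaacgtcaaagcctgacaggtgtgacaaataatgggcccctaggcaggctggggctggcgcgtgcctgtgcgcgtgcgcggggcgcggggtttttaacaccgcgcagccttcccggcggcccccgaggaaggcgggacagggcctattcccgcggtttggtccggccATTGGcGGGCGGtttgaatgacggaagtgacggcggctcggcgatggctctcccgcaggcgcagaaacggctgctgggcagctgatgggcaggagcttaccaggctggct
UBR4 lay at chr1:19210217-19210516 (minus strand), BRWD1 at chr21:39313583-39313882 (minus), TNS3 at chr7:47582537-47582836 (minus) and CEP295 at chr11:93661432-93661731 (plus). At UBR4, BRWD1 and CEP295 peaks of H2AZ, H3K27ac and H3K9ac covered 100% of the window in every library. At TNS3, H3K27ac and H3K9ac covered 100% in every library, and H2AZ covered 0% in both NC1235 libraries and 88.7 and 35.0% in Si1235. H3K36me3 covered 0% of the 4 windows in every library. The domains began 8.27, 1.24, 221.5 and 2.63 kb downstream of these starts.

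Domains also held microRNA hairpins, 60 of 1461 autosomal ones (4.11%), where the domains made up 1.101% of the autosomal span. Every domain overlapped a coding gene, and the share of hairpins in coding gene bodies at large was not computed. The hairpins lay in 51 domains, and 48 of the 54 with a known host strand were on the strand of the host gene. Mature sequences from RefSeq are shown, with the seed (bases 2 to 8) in capitals, for pairs of hairpins in 1 domain that share a seed and for the hairpins in ERBB2, the gene of the HER2 receptor, and SREBF2, a regulator of cholesterol genes.
hsa-miR-15b-5p: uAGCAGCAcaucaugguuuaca
hsa-miR-16-5p: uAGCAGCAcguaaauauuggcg
hsa-miR-30e-5p: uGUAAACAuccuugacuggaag
hsa-miR-30c-5p: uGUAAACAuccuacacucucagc
hsa-miR-33a-5p: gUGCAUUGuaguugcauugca
hsa-miR-4728-3p: cAUGCUGAccucccuccugccccag
The first pair, with seed AGCAGCA, lay in the domain of SMC4, a condensin subunit (chromosome 3). The second pair, with seed GUAAACA, lay in that of NFYC, a subunit of the factor that binds CCAAT (chromosome 1). H3K36me3 peaks covered 99.6 and 95.5% of the SMC4 domain in NC1235, against 97.2 and 89.1% in Si1235. They covered 96.6 and 75.9% of the NFYC domain in NC1235, against 89.8 and 79.7% in Si1235. In both domains the lowest value came from a replicate 2 and the arms overlapped. The mature levels of these microRNAs are not measured by peak lists.

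The median domain was 26.1 kb long (quartiles 22.6 and 33.4 kb), against 2.89 kb for the other regions with a peak in all 4 lists. There were 360 domains of at least 30 kb, 63 of at least 50 kb and 3 of at least 100 kb. The longest, 135.8 kb at chromosome 7: 98880926–99016769 (hg38), covered 98.2% of TRRAP, the scaffold of histone acetyltransferase complexes. UBR4, a ubiquitin ligase, followed with 129.8 kb (chromosome 1: 19072175–19201993), and BRWD1, a bromodomain protein, with 108.2 kb (chromosome 21: 39204194–39312391). The next 7 were TNS3 (86.7 kb), a focal adhesion protein; CEP295 (76.0 kb), a centriole protein; CKAP5 (74.4 kb), a microtubule polymerase; and COL12A1 (74.2 kb), a collagen. DYNC1H1 (73.8 kb) encodes the dynein heavy chain, IARS1 (73.2 kb) the isoleucyl-tRNA synthetase, and PRRC2B (71.1 kb) a proline-rich protein. Just inside the limit lay ASPM (20012 bp), NOL11 (20019 bp) and DDX6 (20027 bp). Just outside lay regions in PPP4R1 (19991 bp), TASOR (19989 bp) and RMP64 (19984 bp). H3K36me3 cover overlapped between the 2 sides, at 80.5 to 99.7% inside and 86.6 to 98.6% outside.

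Every domain overlapped a protein-coding gene, in 1063 of 1063 cases. The genes that held most of each domain numbered 975, and 73 of them held more than 1 domain. TNS3 held 4 domains that together made up 202.9 kb (65.7% of the gene), and KYNU, an enzyme of tryptophan breakdown, held 4 with 93.3 kb. Of the 1063 domains, 564 lay wholly inside the host gene, and the median domain made up 54.4% of its host. Only 7 domains overlapped 3 coding genes, which was the most. Those 7 included the domain over EIF2AK1, AIMP2 and ANKRD61 (chromosome 7) and the one over REC8, IRF9 and IPO4 (chromosome 14). Per 100 coding genes of at least 20 kb, chromosome 21 held 17.6 domains, chromosome 22 16.96 and chromosome 13 2.92. Gene copy number in this line was not analysed here.

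Domains sat towards the downstream end of their genes. Edges were measured in 878 domains, called oriented, that had a known host strand and lay mostly inside the host gene. Domains that lay mostly outside their host were left out even where its strand was known. An example is the REC8 domain, which held the whole gene but had only 34.8% of its length in it. This choice favours edges inside the gene, and its part in the values below was not tested. None of these 878 began before the annotated gene start, and the median 5′ edge lay 11.7 kb inside the gene. Of the 878, 304 (34.6%) began within 5 kb of the start. The median 3′ edge lay at −0.414 kb from the gene end (short of it), 409 domains ran past it, and 461 (52.5%) ended within 5 kb of it. The midpoint lay past the middle of the gene for 662 domains (75.4%). HNRNPC, an RNA-binding protein of nascent transcripts, had a domain of 65.9 kb that began 0.829 kb after the gene start and ended 6.41 kb past the gene end. The first TNS3 domain by coordinate, the farthest downstream of 4 on this minus-strand gene, began 221.5 kb into the gene and ended 0.756 kb past it. RIF1, a factor of DNA replication timing, had a domain of 69.2 kb that began 1.64 kb into the gene and stopped 53.7 kb before its end. These 3 domains range from cover of nearly the whole gene to cover of 1 end. They are single domains, and the third TNS3 domain began 49.7 kb into that gene.

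Genes of nuclear transport and translation were the list most often held by domains. Of its 28 genes, 20 (71.4%) had at least 50% of their length in domains, against 3.64% of all 19126 autosomal coding genes and 5.76% of those of at least 20 kb. Among them were NUP98 and NUP205 of the nuclear pore, with 86.6 and 77.6 kb in domains, and the tRNA synthetases EPRS1 and IARS1, with 73.3 and 73.2 kb. Of 29 genes of RNA polymerase II transcription and splicing, 15 reached that share, for example RBM25, a splicing regulator (83.6% of the gene), DHX9, a helicase (95.2%), and MED1 of the Mediator complex (87.4%). MED13 of the same complex held 42.9%. Chromatin remodelling and acetylation gave 11 of 30, with the remodeller CHD2 at 82.5%, BAZ1B at 73.1% and the acetyltransferase EP300 at 63.7%. The BPTF value was 38.1%. Membrane traffic and lipid genes gave 8 of 26, with the coat proteins COPA (96.3%) and CLTC (69.5%) and the lipid enzyme ACACA at 17.5%. The lists hold large, widely transcribed genes and were written with earlier results of these data known, so they are no independent evidence.

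Writers, erasers and readers of H3K36 methylation gave 5 of 25. NSD1, a methyltransferase of H3K36, had 106.2 kb in 3 domains (63.0% of the gene), the demethylase KDM4A 94.9% and SUPT6H, a histone chaperone of elongation, 86.7%. ASH1L, another methyltransferase, had 11.1%. Genes of DNA replication licensing and firing gave 5 of 33, with RIF1 (55.6%), the firing factor TICRR (94.1%) and the helicase subunit MCM6 (91.9%), and MCM5 at 47.3%. ERBB signalling and the 17q12 amplicon gave 4 of 35, with TOP2A (95.9%) and the kinase AKT1 (86.6%), while SOS1 had 18.3%. Large ubiquitin ligases gave 4 of 25, the cytoskeleton and adhesion list 7 of 36 and the kinases related to PI3-kinase 2 of 6. Zinc finger genes gave 10 of 553 (1.81%), below the share of all coding genes. Immune markers gave 0 of 10 and endothelial and fibroblast markers 0 of 11.

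**Figure D1:**
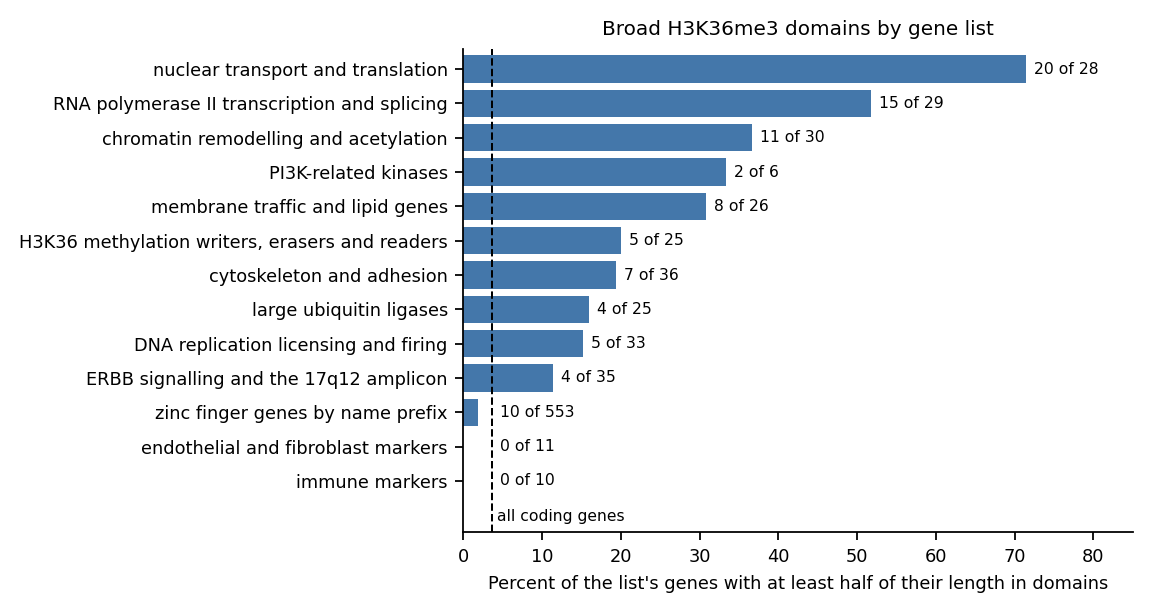
Percent of each gene list with at least 50% of the gene in broad H3K36me3 domains (horizontal axis, percent), with the count beside each bar and a dashed line at 3.64%, the share of all coding genes. Nuclear transport and translation led with 20 of 28, and zinc finger genes lay below the line with 10 of 553.

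Peaks covered most of each domain in every library. Over all domain base pairs, H3K36me3 cover was 96.4% in NC1235 replicate 1, 90.8% in NC1235 replicate 2, 94.9% in Si1235 replicate 1 and 91.0% in Si1235 replicate 2. Both replicates 2 were below both replicates 1, and the arms overlapped. Si1235 minus NC1235 was −0.665 percentage points, at −1.49 within replicate 1 and 0.161 within replicate 2. Of the domain base pairs 83.0% were covered in all 4 libraries, 9.75% in 3, 4.70% in 2 and 2.56% in 1. Pieces under a peak in NC1235 alone, in both of its libraries, made up 1.21%, and those in Si1235 alone 0.887%. The rule used these lists, so their values are a description and carry no test. The highest mean cover was 99.8%, in the second CHD2 domain, followed by MYH9, a non-muscle myosin (99.4%), PRPF8, the core protein of the spliceosome (99.3%), and the translation initiation factors EIF3A (99.3%) and EIF3B (99.3%). The lowest was 75.6%, in ABCC5, an efflux pump.

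Breaks, the gaps of at least 1 bp between neighbouring peaks inside a domain, numbered 4.92 per 100 kb in NC1235 replicate 1, 13.6 in NC1235 replicate 2, 8.05 in Si1235 replicate 1 and 14.7 in Si1235 replicate 2. Replicates 2 had more breaks than replicates 1 in both arms. Si1235 minus NC1235 was 2.14 breaks per 100 kb, at 3.13 within replicate 1 and 1.14 within replicate 2. Without NC1235 replicate 1 the differences in cover and breaks turned to 2.15 points and −2.19 breaks, and without Si1235 replicate 2 to 1.04 points and −1.08 breaks. The background level that could be solved from weak peaks, an indirect measure of depth, was 1.39, 0.902, 1.096 and 0.788 reads per position in the same order of libraries. The library with more background had fewer breaks at every step of that order, and the part of depth in the breaks was not tested. Between 34.1% (NC1235 replicate 1) and 9.13% (Si1235 replicate 2) of the domains had no break. The median break was 344 to 364 bp long and the longest 3524 bp.

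**Figure D2:**
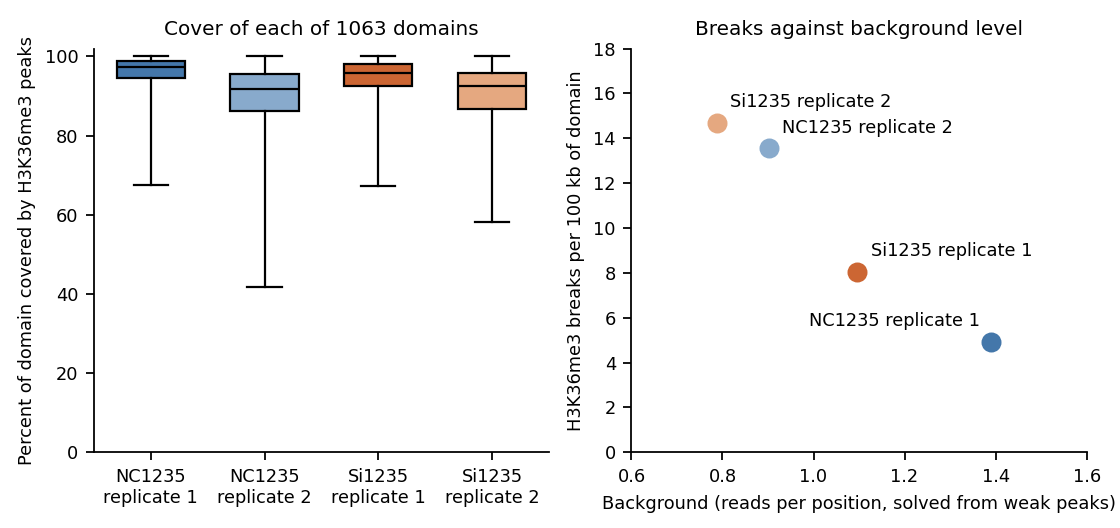
Left, percent of each of the 1063 domains covered by H3K36me3 peaks, per library (box, quartiles and median; whiskers, lowest and highest domain). Right, breaks per 100 kb of domain against the background solved from weak peaks, 1 point per library; the points fall from 14.7 breaks at 0.788 reads to 4.92 breaks at 1.39 reads.

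Part of the breaks lay at the same places in different libraries. Of the 1556 breaks of NC1235 replicate 1, 58.7% overlapped a break of NC1235 replicate 2, 27.5% one of Si1235 replicate 1 and 49.2% one of Si1235 replicate 2. Of the 2545 breaks of Si1235 replicate 1, 56.6% overlapped a break of Si1235 replicate 2, 44.6% one of NC1235 replicate 2 and 16.8% one of NC1235 replicate 1. In each pair of a replicate 1 and a replicate 2, the replicate 2, which had more breaks, had the lower share. The overlap of randomly placed breaks was not computed. Of the 4286 breaks of NC1235 replicate 2, 44.7% overlapped one of Si1235 replicate 2, 26.3% one of Si1235 replicate 1 and 21.0% one of NC1235 replicate 1. The 4648 breaks of Si1235 replicate 2 did so at 41.8% for NC1235 replicate 2, 30.6% for Si1235 replicate 1 and 16.8% for NC1235 replicate 1. Domains with a known host strand were cut into 10 equal bins from the 5′ side, and bins 1 and 10 held more breaks than those between. In NC1235 replicate 1 they held 14.5% and 16.2% of the 1288 breaks in these domains, against 7.92% in bin 5. Both Si1235 libraries had more breaks than both NC1235 libraries in 148 domains (13.9%) and fewer in 39 (3.67%). Over 8462 regions of at least 5 kb the same pattern held in 11.5% and 4.60%. Cover was higher in both Si1235 libraries in 119 domains (11.2%) and lower in 193 (18.2%), against 15.5% and 18.4% of those regions. Of the 5 domains with most breaks for their length, FBXO21, a ubiquitin ligase subunit, had 5 and 9 breaks in NC1235, against 6 and 16 in Si1235. ORC1, the largest subunit of the origin recognition complex, had 1 and 10 in NC1235, against 7 and 12 in Si1235. The other 3 were CENPU, the phosphatase gene PTPN11 and ZBTB40, a zinc finger gene.

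A few domains differed widely in cover between the arms. In the first domain of SAMHD1, an enzyme that degrades deoxynucleotides (chromosome 20: 36890556–36912742), cover was 67.5 and 41.8% in NC1235, against 98.1 and 96.7% in Si1235. The second SAMHD1 domain gave 78.8 and 57.2% against 98.6 and 90.8%. The first domain of GPT2, an alanine transaminase (chromosome 16: 46885846–46907901), had 73.6 and 44.7% in NC1235, against 99.7 and 97.4% in Si1235. HERC6, an interferon-induced ligase-like gene (chromosome 4: 88383119–88404026), had 68.0 and 54.0% against 94.5 and 90.4%. AKT1 (chromosome 14: 104769853–104792705) had 76.3 and 63.7% against 95.6 and 87.8%. In these 5 domains the lower Si1235 value exceeded the higher NC1235 value.

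Cover was lower in both Si1235 libraries in RAI14, an actin-binding protein (chromosome 5: 34810444–34832875), at 93.1 and 92.3% in NC1235, against 67.4 and 58.1% in Si1235. CENPU, a centromere protein (chromosome 4: 184692692–184721321), had 94.9 and 83.6% against 69.8 and 59.0%. ACACA, the first enzyme of fatty acid synthesis (chromosome 17: 37219933–37276289), had 97.6 and 91.0% against 76.1 and 73.5%. FGD3, an exchange factor for a small GTPase (chromosome 9: 93004011–93026221), had 94.7 and 90.9% against 82.3 and 63.4%. SMC2, a condensin subunit (chromosome 9: 104099742–104121581), had 96.8 and 77.0% against 74.6 and 61.4%, where the lowest NC1235 value lay near the highest Si1235 value. These 10 domains were chosen for the size of their difference among the domains whose arms did not overlap. The domains were chosen on these same lists, so the counts of a limma fit over 27356 regions are given as a description, and no test of the domains is read from them. At an adjusted p of 0.05 (Benjamini-Hochberg) it called 0 domains and 4 regions (0.0146%). At an unadjusted p under 0.05 it held 80 domains (7.53%), close to the 7.12% of all regions. With the replicate number as a block it called 63 domains (5.93%) and 2.28% of all regions, and after quantile normalization 34 domains (3.20%) and 2% of all regions.

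**Figure D3:**
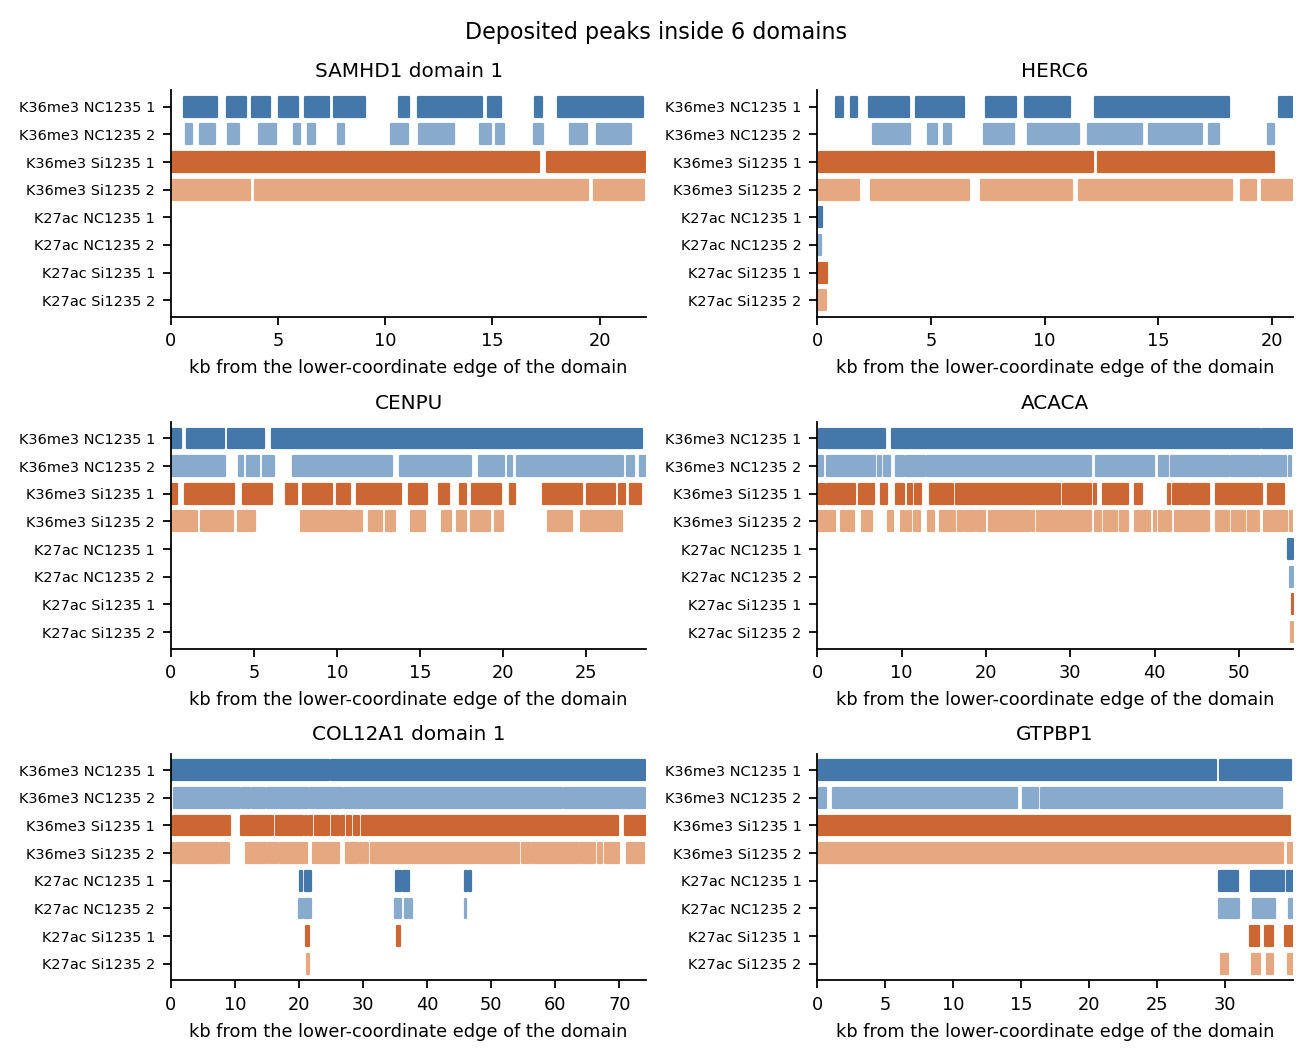
Deposited H3K36me3 and H3K27ac peaks inside 6 domains, 1 row per library, against distance from the lower-coordinate edge (kb). In SAMHD1 and HERC6 the Si1235 rows are near-continuous and the NC1235 rows broken; in CENPU and ACACA the Si1235 rows hold less H3K36me3, while NC1235 replicate 2 is broken too; in COL12A1 and GTPBP1 the Si1235 rows hold less H3K27ac.

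H2AZ was nearly absent from the domains. Its peaks covered 0.00415% of domain base pairs in NC1235 replicate 1, 0.00307% in NC1235 replicate 2, 0.01005% in Si1235 replicate 1 and 0.00536% in Si1235 replicate 2. The same lists covered 1.65 to 1.98% of coding gene bodies outside H3K36me3 regions and 0.0159 to 0.0306% of the other H3K36me3 regions. Domain cover was lower in 4 of 4 libraries in both comparisons (exact sign-flip permutation test over libraries, two-sided, p = 0.125, the smallest that 4 libraries allow). Coding gene bodies outside H3K36me3 regions take in gene starts, where H2AZ often lies, whereas only 13 coding starts lay inside domains. The part of starts in that comparison was not tested. The other H3K36me3 regions were shorter than the domains by the rule, and the part of length in the comparison with them was not tested. Between 4 and 13 H2AZ peaks per library touched a domain, and all but 3 peaks of Si1235 replicate 1 lay within 2 kb of an edge. In all, 18 domains (1.69%) had a peak in at least 1 library and 2 in all 4. The domains with most H2AZ cover were FGD3, SPAG5, MYO5C, NUSAP1 and the second SMCHD1 domain. FGD3 had 1.31 and 0.936% in NC1235, against 1.99 and 1.80% in Si1235, and its peak lay across the domain edge. SPAG5, a spindle protein, had 1.09 and 0.921% against 1.21 and 0.475%. In Si1235 the H2AZ cover of domains was higher by 0.00409 points, at 0.00590 within replicate 1 and 0.00229 within replicate 2. The 2 Si1235 values exceeded the 2 NC1235 values, and the exact permutation p was 0.333, the smallest that 2 against 2 allow. By other measures the arms overlapped. H2AZ peaks per Mb of domain were 0.221 and 0.126 in NC1235, against 0.411 and 0.190 in Si1235 (exact permutation p = 0.667). Domains with an H2AZ peak made up 0.659 and 0.376% in NC1235, against 1.22 and 0.564% in Si1235 (exact permutation p = 0.667). FGD3 was the only domain with enough H2AZ for the limma fit, and its adjusted p was 0.672. Of the 96 regions fitted, 1 passed (1.04%).

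The starts of the domain genes carried the marks that the domains lacked. Of 807 host starts outside domains, 96.03 to 97.03% had an H2AZ peak within 1 kb in each of the 4 libraries, 96.8 to 96.9% had H3K27ac, and 97.5 and 97.4% had H3K9ac. Over all 15101 autosomal coding starts in the table H2AZ was at 65.8 to 67.4%, H3K27ac at 58.4 to 59.1%, and H3K9ac at 67.0 and 66.7%. Inside domains lay 13 coding and 48 lncRNA starts, and 0 of either had an H2AZ peak in any library. Over all lncRNA starts H2AZ was at 28.1 to 30.3%. Of the lncRNA starts inside domains, 3 (6.25%) had H3K27ac in each library, against 26.0 to 26.5% of all lncRNA starts. In a profile over 878 oriented domains, H2AZ cover was highest 2.5 kb upstream of the 5′ edge, at 20.2 to 22.2% of the bin, and H3K27ac 1.5 kb upstream, at 32.1 to 32.9%. H3K9ac reached 38.9 and 38.6% at 1.5 kb. At the 3′ edge the highest bin outside held 4.46 to 5.52% H2AZ. ChIRP was level across both edges.

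**Figure D4:**
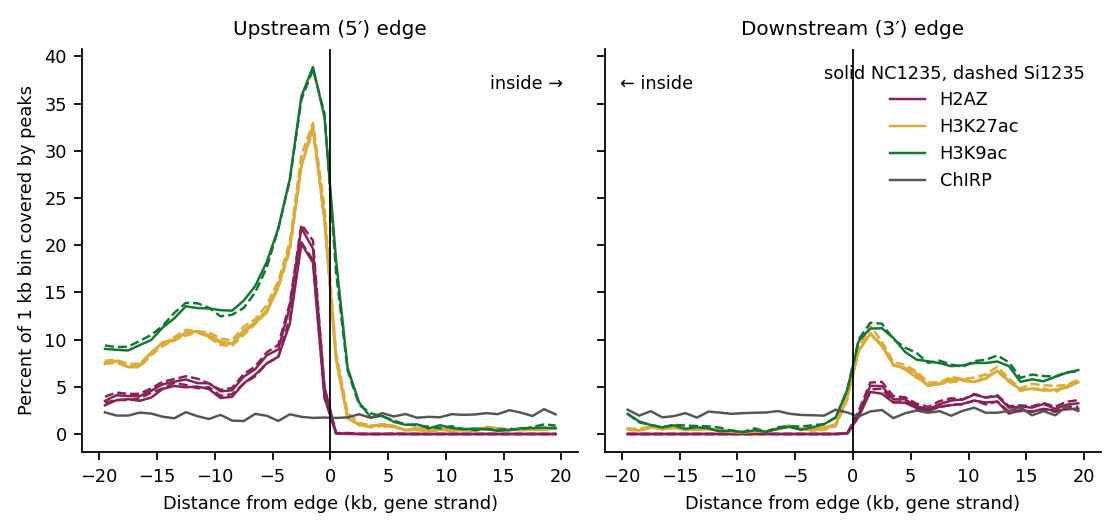
Percent of each 1 kb bin covered by peaks around the upstream and downstream edges of 878 domains, by distance from the edge on the gene strand (kb); 1 line per library, solid for NC1235 and dashed for Si1235. H2AZ, H3K27ac and H3K9ac peak just outside the upstream edge and drop inside it, whereas ChIRP stays level.

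H3K27ac, a mark of active promoters and enhancers, covered 0.888 and 0.912% of domain base pairs in NC1235, against 1.00 and 0.871% in Si1235. The arms overlapped, with a difference of 0.0361 points (0.113 within replicate 1, −0.0405 within replicate 2, exact permutation p = 1). Without Si1235 replicate 1 the difference turned to −0.0288. Other H3K36me3 regions had 1.75 to 1.96%, higher than domains in 4 of 4 libraries (exact sign-flip p = 0.125, the smallest possible). Those regions were shorter by the rule (median 2.89 kb), so a larger share of them lay near an edge. In domains without the 2 kb at either edge, H3K27ac covered 0.428 to 0.502%. The part of length in this contrast was not tested. In weak peaks of the 2 NC1235 H3K27ac lists only 0.8 and 4.07% gave a whole number of reads, against 100 and 99.9% in Si1235. This property of the lists went with the arm, and its part in the H3K27ac differences between the arms cannot be told apart from them. An H3K27ac peak was present in all 4 libraries in 229 domains (21.5%). NEDD9, an adhesion scaffold, had the most in its second domain, at 40.6 and 44.6% in NC1235, against 40.5 and 37.6% in Si1235. ENO1, the glycolytic enolase, had 26.4 and 25.6% against 26.5 and 23.5%. ACIN1, TBC1D2 and the second ACTN1 domain followed with means of 24.7, 23.002 and 20.5%. In these 5 the arms differed little beside the level.

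Among 228 domains with a mean H3K27ac cover of at least 1%, 0 passed the limma test (adjusted p of 0.05). An unadjusted p under 0.05 was found for 51 (22.4%), close to the 22.3% of all fitted regions. The lowest adjusted p was 0.0605. Of the 2760 regions fitted, 15 passed (0.543%). The arms did not overlap in 80 of the 228 with Si1235 higher and in 53 with Si1235 lower, beside 30.7% and 20% of all fitted regions. Of the domains higher in Si1235, RANGAP1, which activates the Ran GTPase in nuclear transport, had 6.71 and 8.95% in NC1235, against 17.4 and 13.7% in Si1235 (limma adjusted p = 0.171). ARHGEF2, an exchange factor for RhoA, had 5.98 and 4.55% against 13.5 and 9.48% (limma adjusted p = 0.221). EPHA2, an ephrin receptor, RIPK4, a kinase, and DYNC1LI2, a dynein chain, differed by 5.17, 4.92 and 4.42 points. Of those lower in Si1235, URB1, a ribosome biogenesis factor, had 12.2 and 12.6% in its second domain in NC1235, against 8.70 and 8.27% in Si1235 (limma adjusted p = 0.0605). The first COL12A1 domain had 5.19 and 4.88% against 1.26 and 0.443% (limma adjusted p = 0.0682). The second COL12A1 domain, GTPBP1 and DUSP10, a MAP kinase phosphatase, differed by −4.10, −5.48 and −4.01 points. Of the 544 merged H3K27ac regions that touched a domain, 30 (5.51%) had peaks in both NC1235 and neither Si1235 library and 20 (3.68%) the reverse. Over all 50200 merged H3K27ac regions these shares were 5.71% and 3.94%.

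**Figure D5:**
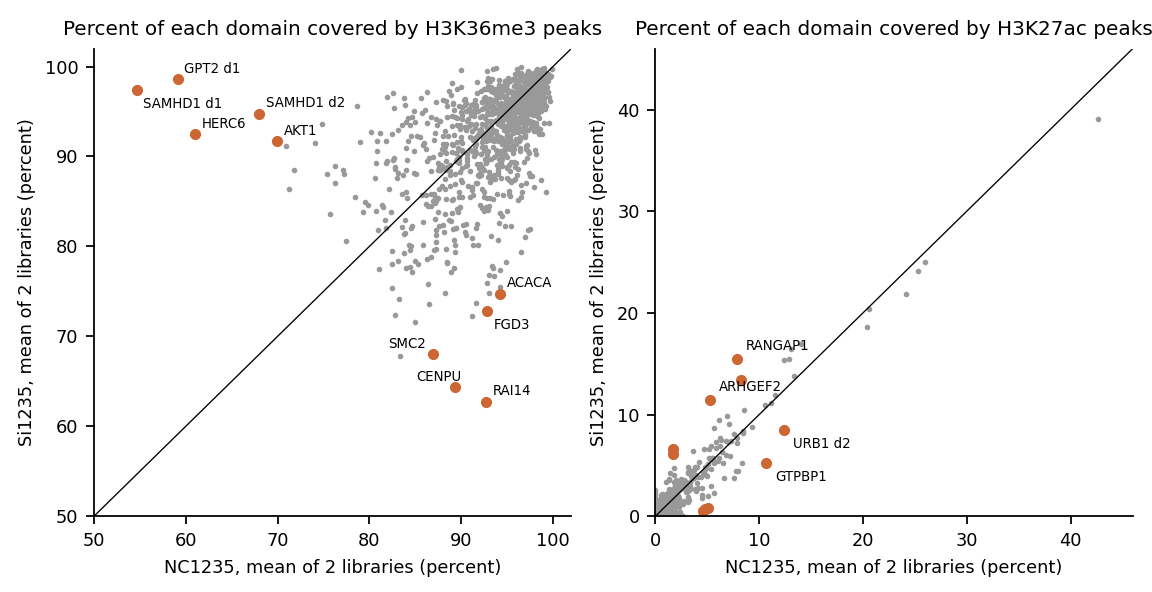
Mean percent of each of the 1063 domains covered in NC1235 (horizontal) and Si1235 (vertical), for H3K36me3 on axes that start at 50% and H3K27ac on axes that start at 0%; orange marks the domains named for the largest differences, and the line marks equality. Most domains lie near the line, while SAMHD1 and GPT2 lie far above it and RAI14 and CENPU below it for H3K36me3.

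H3K9ac had 1 library per arm and so no test. It covered 1.82% of domain base pairs in NC1235 and 1.79% in Si1235, against 3.10 and 3.05% of other H3K36me3 regions. Those regions were again shorter, and the part of length was not tested. Peaks lay in 426 domains (40.1%) in each arm, and 367 had one in both. The second NEDD9 domain again had the most, at 47.3% in NC1235 and 57.0% in Si1235. DUSP10 had 35.0 and 39.3%, and RARRES1, a retinoid-induced gene, 40.9 and 28.7%. H3K9ac covered 6.81 and 7.202% of the domain base pairs that 1 H3K36me3 library covered, and 1.44 and 1.40% of those that all 4 covered. For H3K27ac the same comparison gave 4.07 to 4.74% against 0.596 to 0.677%. Peaks were merged, so the outermost base pairs of a domain can come from a peak of 1 library. In domains without the 2 kb at either edge, H3K9ac covered 0.847% in NC1235 and 0.870% in Si1235, and H3K27ac 0.428 to 0.502%. The part of nearness to an edge in both comparisons was not tested. Of the 1063 domains, 543 (51.1%) had no peak of H2AZ, H3K27ac or H3K9ac in any list. The longest of them were TRRAP, CKAP5 and RIGI, the last a sensor of viral RNA.

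ChIRP peaks were not depleted in domains. They covered 2.05% of domain base pairs, 2.23% of other H3K36me3 regions and 1.71% of the autosomes. A ChIRP peak lay in 806 domains (75.8%), and 220 held at least 3. With 1 library there is no spread and no test. The most ChIRP cover was in AHNAK, a giant scaffold protein (16.0%), DDX24, an RNA helicase (14.5%), ERBB2 (13.3%), PILRB (10.8%) and ZNF142 (10.6%). The ERBB2 domain, at chromosome 17: 39706795–39729768, ran over 53.9% of the gene into MIEN1 and had 0 breaks in any library. H3K36me3 covered 99.1 and 98.6% of it in NC1235, against 99.7 and 99.6% in Si1235. H3K27ac covered 6.41 and 6.34% against 7.74 and 7.37%, and H3K9ac 19.7% against 39.6%. ERBB2 belongs to the 17q12 amplicon, and the part of gene copy number in these values was not tested. Of the 1063 domains, 136 (12.8%) had no peak in any of the 11 other lists.

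The promoters of host genes were rich in G and C. In 808 host promoters the median GC content was 65.3% and the median number of CpG steps in 300 bases 28, against 63.0% and 22 in all 15101. GGGCGG, a motif of Sp1-family factors, was present in 72.5% of host promoters and 58.9% of all, and CCAAT in 39.6 and 35.99%. CACGTG, the E-box bound by MYC, was present in 11.9 and 8.77%, and TATAAA, the TATA box, in 4.95 and 9.71%. Both strands were searched, CACGTG reads the same on both, and a match is a description of letters and not a bound site.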

How the data were processed

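ChIP-seq and ChIRP peak lists of 15 libraries were used; the 2 input samples had no list used here. Per the submitters' processing notes, the tools were Bowtie2 2.2.9, an aligner, MACS2, a peak caller, HTSeq 2.0.3 and DESeq2 1.22.2, with hg38 as the build. The MACS2 settings are not given in the sources used here. Each deposited list gave, per peak, a fold enrichment (a linear ratio) and −log10 p and −log10 q values from the authors' peak caller. The lowest −log10 q was 2.00029, so weaker enrichment is not seen. No read counts were used, so depth is unknown. A background level was solved from fold and p of 1500 weak peaks per library (tolerance 0.002).

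Peaks were merged, and cover (percent of base pairs under a peak) and breaks were computed in Python 3.11.15. Genes, starts and sequences came from RefSeq tables of GRCh38.p14, which is hg38. Arm differences are Si1235 minus NC1235. Libraries were compared with exact two-sided permutation tests, and regions with limma 3.58.1 (R 4.3.3) on percent cover, with the prior spread following log10 length, a minimum mean cover of 1% for H2AZ and H3K27ac, and Benjamini-Hochberg adjustment over all regions fitted. On simulated data of 2760 regions the H3K27ac fit recovered 66% of differences of 20 points and 93% of 40 points, with 4 false calls. The largest H3K27ac differences named for domains were 7.68 and −5.48 points. Differences of that size were not simulated, so the recovery does not show how often the fit would find them. The simulated noise was normal, its spread followed region length alone, and values were not kept within the range of a percentage. Measured cover is bounded, so the recovery and the false calls do not carry over to it. A gene counted as held when at least 50% of it lay in domains. Named were the longest domains, those with extreme cover, breaks or marks, the nearest to the limit, the largest non-overlapping arm differences, and the longest members of each list. The domains, the 12 lists of 295 genes and the zinc finger name rule were chosen with earlier results of these data known. Alternatives covered length, merging, thresholds, equal peak numbers, normalization, the replicate block and each library left out.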

Additional observations from a re-analysis of the deposited data

How the results depend on the processing

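The number of domains was 1024 with H3K36me3 peaks of −log10 q of at least 5, 1052 with equal numbers of top peaks, 360 at 30 kb, 2262 with gaps of up to 1 kb merged, and 805 to 999 with 1 library left out. Cover, break, H2AZ and H3K27ac differences kept their direction under the length, merging, threshold and equal-number settings, but not always their size. They moved by over 1.5 times to 0.368 breaks per 100 kb with breaks of at least 500 bp (2.14 in the main setting), −0.330 points of cover with gaps of up to 1 kb merged (−0.665), 0.00266 points of H2AZ at −log10 q of at least 5 (0.00409), and 0.00438 points of H3K27ac at 30 kb and 0.0228 at −log10 q of at least 5 (0.0361). With 1 library left out they ranged from −3.09 to 2.15 points for cover, −2.19 to 6.05 breaks per 100 kb, 0.00175 to 0.00644 points for H2AZ and −0.0288 to 0.101 points for H3K27ac. Cover and breaks turned without NC1235 replicate 1 (2.15 and −2.19) or Si1235 replicate 2 (1.04 and −1.08), and H3K27ac without Si1235 replicate 1 (−0.0288). H3K9ac and ChIRP cover stayed within 1.5 times at the stricter threshold.

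The replicate block left differences of means as they were (−0.665 points of cover, 2.14 breaks). Same-numbered libraries deviated together with a correlation of 0.0728 for H3K36me3, 0.520 for H2AZ (over 96 regions) and 0.0898 for H3K27ac. H3K36me3 cover, breaks and background also split by number in both arms. The labels do not say what a number marks, and 2 numbers are too few to show pairing, so the block stayed an alternative. For H3K36me3 in limma, domains called were 0 in the main setting, 63 with the replicate block (5.93%, against 2.28% of all regions), 34 after quantile normalization (3.20% against 2.00%) and 1 to 7 with 1 library left out (0.0941 to 0.659%, against 0.00731 to 0.0841%); the cause was not tested. Where 1 library of an arm was left, it was assumed to vary like the other arm. The 25% filter removed no region. For H2AZ, 0 became 15 without the cover filter (1.41%, against 0.651% of all regions), where most regions have 4 zeros and the estimated spread is not reliable; for H3K27ac, 0 became 1 (0.0941% against 0.117%). Of 168 values of single domains, 132 kept their side, 35 became stronger and 1 reversed, H2AZ of FGD3 after quantile normalization (−0.239).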
